A study of Mus musculus with 16 samples.

Results

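The genes of the matrix metalloproteinases (Mmp), of the related ADAMTS proteases (Adamts) and of the tissue inhibitors of metalloproteinases (Timp) were followed in tumors of mouse forestomach carcinoma (MFC), a mouse gastric cancer cell line. Members were chosen by symbol alone: every gene named Mmp, Adamts or Timp with a number, and with at least 10 counts over the 16 tumors. Of 46 such names, 44 genes were kept, 21 Mmp, 19 Adamts and 4 Timp genes, out of 22298 genes listed; Mmp20 and Mmp21 had 1 count each and were left out. The tumors came from 6-week-old wild-type 615-line mice that had received 500000 MFC cells into the abdominal cavity. The vehicle group was given phosphate-buffered saline (PBS) and the IL-33 treatment group was given mouse IL-33, an alarmin cytokine of the IL-1 family, at 20 µg/kg into the same cavity every 2 days. RNA-seq counts were available for 8 tumors per group. The sources used here do not say whether each tumor came from a separate mouse. A survival experiment of the study in this model had more mice per group than tumors were sequenced. The number of mice per group given for this tumor model in the methods is below the number of tumors sequenced. Tumors of a group may therefore share a mouse, so p-values measure the spread between these tumors and may be too small.

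Matrix metalloproteinases are zinc enzymes that cut collagens, gelatins, elastin, laminin and proteoglycans, and most are made as inactive proenzymes that another protease must open. ADAMTS enzymes are secreted relatives that trim procollagen, cut large proteoglycans or act on von Willebrand factor. TIMPs are small proteins that block the active site of MMPs and, for some TIMPs, that of ADAMTS enzymes. In tumors these genes are read as a record of matrix turnover by tumor cells, fibroblasts and immune cells. IL-33 acts through the receptor ST2 on immune and stromal cells, and the question asked of the tumors was which pathways IL-33 treatment changed.

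Total counts lay between 14139268 and 24290794 per tumor, and 32 of the 44 members had a mean of at least 1 CPM (counts scaled to a fixed total per tumor). Counting error mattered mainly for the 12 members under that level and, without IL-33 replicate 7, for Adamts19, Mmp17 and Timp4. Without that tumor their means were 0.0995, 0.307 and 1.02 CPM in the vehicle group and 0, 0.194 and 0.693 CPM in the IL-33 treatment group. A pair of tumors stood apart from the rest. IL-33 replicate 7 held 1557 CPM summed over 9 genes of uterus and oviduct, against at most 23.4 in any other tumor, 538 CPM over 7 genes of the ovary, against at most 1.06, and 3540 CPM over 6 genes of smooth muscle, against at most 375. The epithelial genes were uneven. Krt8 (181 to 975 CPM) and Krt19 (44.5 to 690 CPM) were high in the other 15 tumors, and at 224 and 211 CPM in IL-33 replicate 7. Epcam, Cdh1, Krt18 and Krt7 stayed at or under 3.01 CPM in those 15 and reached 98.8, 104, 159 and 48.8 CPM in IL-33 replicate 7. Vehicle replicate 4 had a TMM scaling factor of 0.64, against 0.895 to 1.097 in the 14 tumors other than these, and the highest sum of 8 neutrophil genes (465 CPM, against at most 161). The part of these tissues and cells in the results below was not tested, and each comparison was made with and without IL-33 replicate 7. In bulk tissue, fewer cells of a type and less RNA per cell cannot be told apart.

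Levels can be compared between genes only per length, here as CPM per kb of exon. Timp1, a broad inhibitor of secreted MMPs, was highest, with 419 ± 383 CPM per kb in the vehicle group and 235 ± 96.8 in the IL-33 treatment group (SD, n = 8 each). Timp2, which both blocks MMPs and helps membrane-type MMPs to open proMMP2, followed with 219 ± 43.1 and 183 ± 34.5 CPM per kb. Mmp19, an MMP of basement membrane proteins, reached 165 ± 87.6 and 165 ± 100 CPM per kb. These 3 genes held 70.0% of the family's summed level per kb, and the 7 highest held 90.5%. The next in order were the stromelysin Mmp3 (82.8 ± 42.3 and 48.5 ± 17.2), the membrane-type collagenase Mmp14 (52.2 ± 4.37 and 53.9 ± 14.5), the proteoglycan-cleaving Adamts1 (39.9 ± 22.4 and 45.6 ± 18.3) and the gelatinase Mmp2 (38.8 ± 23.3 and 43.3 ± 51.1). Neighbours in this order overlapped in their spread over tumors, and Mmp14 was the steadiest of them in the vehicle group.

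**Figure D1:**
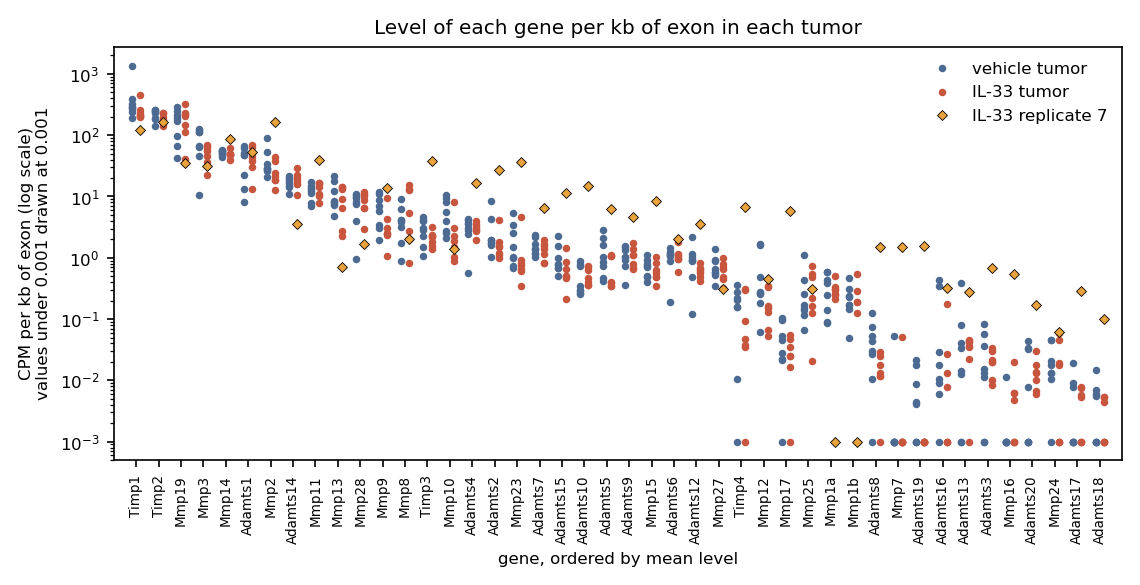
Level of each of the 44 genes per kb of exon (vertical axis, log scale, CPM per kb) in each vehicle tumor, each IL-33 tumor and, as a diamond, IL-33 replicate 7, with genes ordered by their mean. Timp1, Timp2 and Mmp19 lead at means of 327, 201 and 165 CPM per kb, and the diamond lies above the other tumors for most genes on the right.

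No member passed an adjusted p of 0.05 in edgeR's quasi-likelihood test with Benjamini-Hochberg adjustment over all 16817 genes tested; the smallest adjusted p of a member was 0.418 with all tumors and 0.966 without IL-33 replicate 7. The same held over all genes (0 of 16817 in both fits, with 1876 and 705 genes at an unadjusted p under 0.05), while DESeq2 called 0 genes with all tumors (691 at an unadjusted p under 0.05) and 1 gene without that tumor (673), which was no member. Members are therefore described by an unadjusted p under 0.05, beside the share of all genes that pass it. With all tumors, 5 of 44 members (11.4%) were higher in the IL-33 treatment group, where 9.99% of all genes were, and 4 (9.09%) were lower, where 1.17% of all genes were. Of the 5, Mmp16 and Mmp7 reached the minimum of 10 counts only through IL-33 replicate 7. Without IL-33 replicate 7, no member was higher, where 1.87% of all genes were. In that fit 6 (13.6%) were lower, where 2.33% of all genes were. Of these 6, Adamts19 met the minimum of 10 counts outside that tumor only through the vehicle group. Of the 4 members lower with all tumors, Mmp10, Mmp12 and Timp1 were also lower without that tumor; Mmp3 then had an unadjusted p of 0.0655.

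The side of 0 on which members lay turned with that tumor. With all tumors 25 of the 44 fitted log2 fold changes (56.8%) were above 0, near the 58.3% of all genes, with a median of 0.17 beside 0.06 over all genes. Without IL-33 replicate 7, 33 of 44 were below 0, with a median of -0.29 beside -0.01 over all genes. In all, 20 members (45.5%) changed sign, against 27.0% of all genes, and 17 of these went from above to below 0. The 3 that went the other way were Mmp19, Mmp28 and Adamts14, whose lowest IL-33 tumor was replicate 7.

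**Figure D2:**
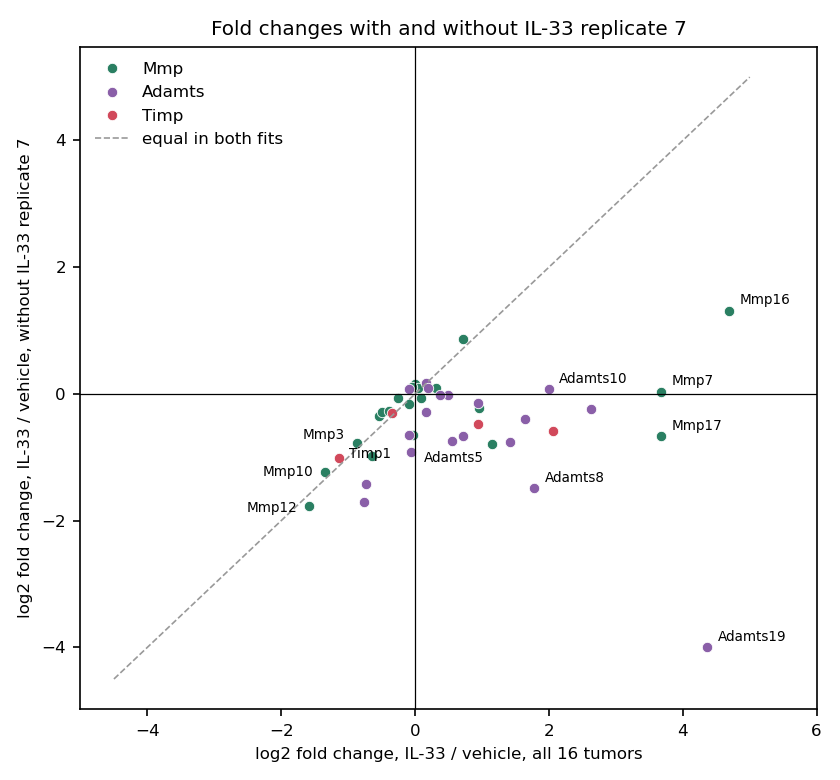
The log2 fold change of each gene (IL-33 over vehicle, edgeR) with all 16 tumors on the horizontal axis and without IL-33 replicate 7 on the vertical axis, coloured by family, with genes at an unadjusted p under 0.05 in either fit named. Mmp10, Mmp12, Mmp3 and Timp1 lie near the dashed line of equal values, while Mmp16, Mmp17, Mmp7, Adamts10, Adamts19 and Adamts8 lie far to its right.

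Among the stromelysins, which cut proteoglycans, laminin and proenzymes of other MMPs, Mmp10 (ENSMUSG00000047562, chromosome 9, positions 7502352 to 7510240, plus strand) passed both the model and the permutation test at an unadjusted p under 0.05. Mmp10 ran from 3.62 to 18.2 CPM in the vehicle tumors (median 8.21), and the IL-33 tumors had 1.52 to 13.9 CPM (median 2.91). Of the IL-33 tumors, 5 were below every vehicle tumor, 7 were below the vehicle median, and replicate 3, at 13.9 CPM, was the exception. The mean of Mmp10 was 2.24-fold lower after IL-33 (9.70 ± 5.78 CPM for vehicle, 4.33 ± 4.07 for IL-33, SD, n = 8 each). The log2 fold change was -1.34 ± 0.52 (SE; unadjusted p = 0.0201 and adjusted p = 0.418 in edgeR). Permuting the group labels over all assignments (exact, two-sided, on log2(CPM + 0.5)) gave an unadjusted p of 0.0227 for Mmp10, and 1.0 after adjustment over all genes. Without IL-33 replicate 7 the log2 fold change of Mmp10 was -1.23 ± 0.53 (edgeR, unadjusted p = 0.0327; exact permutation test, 0.039). Without vehicle replicate 4, whose 16.4 CPM was the second highest value of its group, the edgeR p of Mmp10 was 0.0588, at a log2 fold change of -1.03, and 0.0943 without both tumors. In the data without IL-33 replicate 7, the p of Mmp10 was also above 0.05 (0.0528 to 0.0657) when any one of vehicle replicates 5 and 6 or IL-33 replicates 1, 2, 4, 6 and 8 was left out in addition.

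Mmp3, the other stromelysin of this locus (positions 7445822 to 7455975, plus strand), ran from 18.9 to 230.4 CPM in the vehicle tumors (median 162), and the IL-33 tumors had 40.2 to 124.7 CPM (median 90.6). Every IL-33 tumor was below the vehicle median, 4 vehicle tumors (replicates 3, 5, 6 and 8) were above every IL-33 tumor, and the lowest value of all was in vehicle replicate 2. For Mmp3 the log2 fold change was -0.87 ± 0.39 with all tumors (edgeR, unadjusted p = 0.0373) and -0.77 ± 0.39 without IL-33 replicate 7 (0.0655). The p of Mmp3 also passed above 0.05 when any one of vehicle replicates 3, 4, 5, 6 and 8 or IL-33 replicates 2, 4 and 6 was left out (0.052 to 0.0701). The exact permutation test gave 0.258 with all tumors and 0.00995 when vehicle replicate 2 was left out. Mmp11, the stromelysin of tumor stroma, did not pass in either fit (33.9 ± 9.44 and 45.7 ± 27.1 CPM, SD, n = 8 each), and its highest value, 109 CPM, was in IL-33 replicate 7.

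Mmp12, the metalloelastase of macrophages, was lower by 2.85-fold in its mean (4.37 ± 4.76 CPM in the vehicle group, 1.53 ± 1.05 in the IL-33 treatment group). Its vehicle values ran from 0.453 to 12.1 CPM (median 1.94) with IL-33 values from 0.384 to 3.25 CPM (median 1.14). The groups overlapped, and the highest values were in vehicle replicates 2 and 7, at 11.8 and 12.1 CPM, with vehicle replicate 3, at 3.56 CPM, the only other tumor above every IL-33 tumor. The log2 fold change of Mmp12 was -1.59 ± 0.62 (edgeR, unadjusted p = 0.0202) with all tumors and -1.77 ± 0.63 (0.0127) without IL-33 replicate 7. Leaving out vehicle replicate 2 or vehicle replicate 7 moved the p of Mmp12 with all tumors to 0.0642 and 0.0657. In the data without IL-33 replicate 7, the edgeR p stayed under 0.05 in all 15 fits that left out 1 more tumor. It was at most 0.0365, without vehicle replicate 7. The exact permutation test gave 0.126 with all tumors and 0.0866 without IL-33 replicate 7. Summed over 8 macrophage genes, the vehicle tumors held 667 to 1820 CPM and the IL-33 tumors 494 to 1669 CPM, and vehicle replicates 2 and 7 had 846 and 1820 CPM; the part of macrophages in the Mmp12 values was not tested. Exons of Mmp12 and of Mmp1b overlap by up to 157 bases on opposite strands, and the use of strand in counting is not given in the sources used here, but Mmp1b held only 88 counts in all, against 827 for Mmp12.

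**Figure D3:**
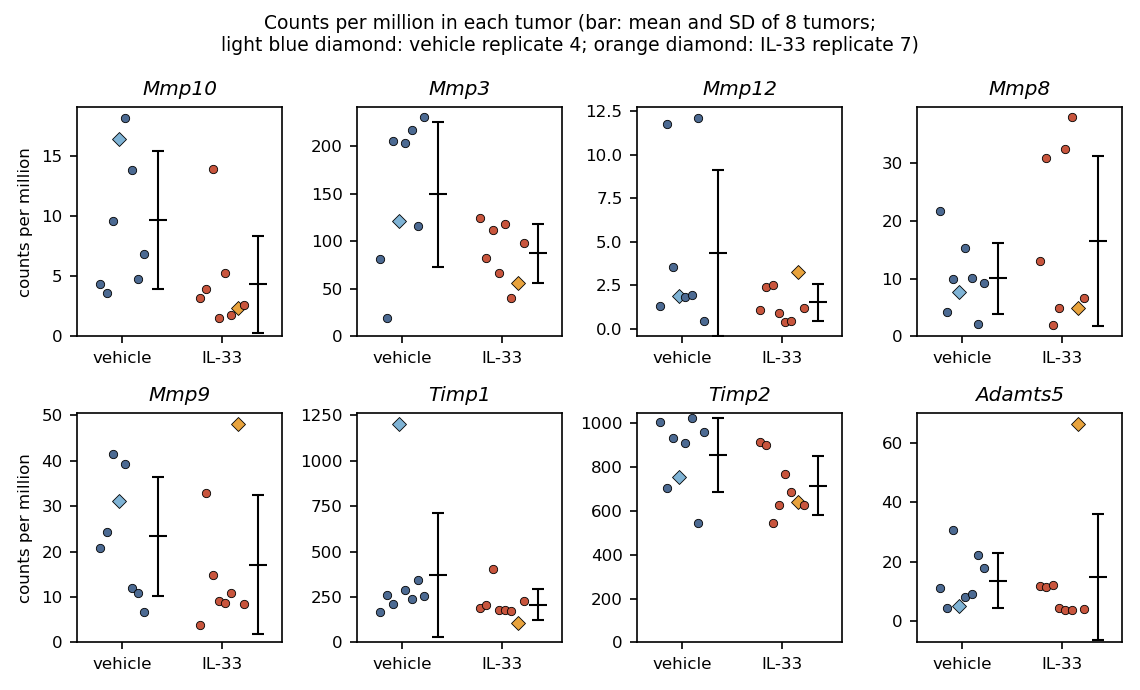
CPM (vertical axis) of 8 genes in each vehicle and each IL-33 tumor, with the mean and SD of the 8 tumors beside the points and diamonds for vehicle replicate 4 and IL-33 replicate 7. For Mmp10 only IL-33 replicate 3 is above the vehicle median, Mmp12 is highest in vehicle replicates 2 and 7, and Timp1 in vehicle replicate 4.

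Mmp10, Mmp3 and Mmp12 are neighbours. With Mmp13, Mmp1b, Mmp1a, Mmp8, Mmp27 and Mmp7 they form a run of 9 members on mouse chromosome 9 between positions 7272514 and 7699585 (GENCODE M21, GRCm38). All but Mmp1b lie on the plus strand. Of these 9 genes, 7 had a log2 fold change below 0 in both fits, with a median of -0.50 with all tumors and -0.28 without IL-33 replicate 7. The 35 members elsewhere had medians of 0.32 and -0.30, and 12 and 26 of them were below 0, as were 7012 and 8664 of all 16817 genes. No gene of the run changed sign without IL-33 replicate 7, whereas 20 of the 35 members elsewhere and 27.0% of all genes did. Mmp7 then stayed above 0 (0.04) on 1 count in the vehicle group and 1 count in the 7 IL-33 tumors.

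**Figure D4:**
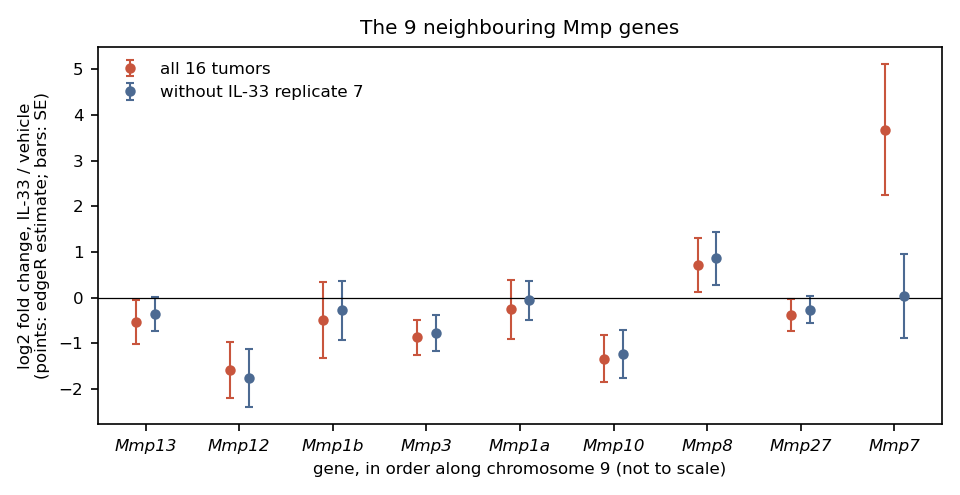
The log2 fold change (vertical axis, IL-33 over vehicle, points edgeR estimates and bars SE) of the 9 neighbouring Mmp genes in their order along chromosome 9, with all 16 tumors and without IL-33 replicate 7. Mmp12, Mmp3 and Mmp10 lie lowest, Mmp8 lies above 0, and Mmp7 moves from 3.68 to 0.04.

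The bases in front of these genes are shown because a shared element is known from textbooks of the family: the AP-1 site, read by Fos and Jun proteins, in front of collagenase and stromelysin genes. The letters TGANTCA, which read the same on both strands, were searched in the 250 bases before the start of each RefSeq promoter (GRCm38.p6), of which 6.75% of all 32851 hold them. A gene was counted where any of its entries held the letters, whereas the 6.75% is a share of entries. Of 30 members with an entry, 7 hold the letters, all of them in the run on chromosome 9. In that run 9 of 9 genes have an entry. None of the 21 other members with an entry holds the letters. The last 100 bases before the start follow, each read 5′ to 3′ on the strand of its gene, with the matched letters in capitals.
Mmp10, chr9:7502242-7502341, plus strand: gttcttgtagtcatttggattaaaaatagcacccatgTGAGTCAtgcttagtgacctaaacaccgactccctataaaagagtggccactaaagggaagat
Mmp3, chr9:7445722-7445821, plus strand: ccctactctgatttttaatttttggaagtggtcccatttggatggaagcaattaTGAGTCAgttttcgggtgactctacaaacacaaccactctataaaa
Mmp12, chr9:7347274-7347373, plus strand: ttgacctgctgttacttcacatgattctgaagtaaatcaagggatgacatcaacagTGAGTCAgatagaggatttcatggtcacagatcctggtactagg
Mmp13, chr9:7272414-7272513, plus strand: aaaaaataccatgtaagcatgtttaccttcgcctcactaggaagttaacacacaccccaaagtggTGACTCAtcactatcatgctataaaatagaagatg
Mmp1a, chr9:7464041-7464140, plus strand: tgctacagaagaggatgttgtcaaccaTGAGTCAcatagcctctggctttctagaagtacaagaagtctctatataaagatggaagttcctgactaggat
Mmp1b, chr9:7388027-7388126, minus strand: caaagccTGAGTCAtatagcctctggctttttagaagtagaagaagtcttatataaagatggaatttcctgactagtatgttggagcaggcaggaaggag
Mmp7, chr9:7691990-7692089, plus strand: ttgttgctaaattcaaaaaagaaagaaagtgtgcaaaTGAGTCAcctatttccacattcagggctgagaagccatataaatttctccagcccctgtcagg
Mmp8, chr9:7558329-7558428, plus strand: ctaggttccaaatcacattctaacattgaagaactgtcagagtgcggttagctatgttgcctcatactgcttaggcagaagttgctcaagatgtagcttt

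The matched letters begin 63 bases before the start in Mmp10 and in Mmp7, 46 in Mmp3, 44 in Mmp12, 35 in Mmp13, 73 in Mmp1a and 93 in Mmp1b, and Mmp12 and Mmp7 each have a further entry without them. Mmp13 carries TGACTCA and the other 6 carry TGAGTCA. The letters TATAAA, searched on the strand of the gene in the same 250 bases (7.59% of all promoters), were found in 6 of the 9 genes of the run, which are the same 7 without Mmp12, and in Adamts1 among the other members. Mmp8, printed as a gene of the run without a match, and Mmp27 hold neither in this window. A match describes letters and not a bound site, and 14 members without an entry were not searched.

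The collagenases, which cut fibrillar collagen, did not move together. Mmp13 ran from 13.1 to 57.0 CPM in the vehicle tumors (median 22.1), against 1.88 to 38.5 CPM after IL-33 (median 20.6), with the highest values in vehicle replicates 2 and 7, as for Mmp12, and the lowest in IL-33 replicate 7. Its log2 fold change was -0.54 ± 0.48 (edgeR, unadjusted p = 0.277). Mmp8, the collagenase stored by neutrophils, ran from 2.12 to 21.8 CPM in the vehicle tumors (median 9.57), against 1.97 to 37.9 CPM after IL-33 (median 9.81). IL-33 replicates 2, 5 and 6, at 30.8, 32.5 and 37.9 CPM, were above every vehicle tumor, and IL-33 replicate 3 was the lowest of all. For Mmp8 the log2 fold change was 0.71 ± 0.60 with all tumors and 0.86 ± 0.58 without IL-33 replicate 7 (edgeR, unadjusted p = 0.252 and 0.159). The sum of 8 neutrophil genes was 161, 94.7 and 132 CPM in those 3 tumors and 465 CPM in vehicle replicate 4, which had 7.64 CPM of Mmp8. Mmp1a and Mmp1b, the rodent counterparts of interstitial collagenase, stayed at or under 1.20 and 0.782 CPM.

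The gelatinases cut denatured collagen and type IV collagen. Mmp9, made by myeloid and tumor cells, ran from 6.79 to 41.5 CPM in the vehicle tumors (median 22.6), against 3.82 to 48.1 CPM after IL-33 (median 9.99), and 5 vehicle tumors but only IL-33 replicates 2 and 7 exceeded 20 CPM. For Mmp9 edgeR fitted a log2 fold change of -0.65 ± 0.49 with all tumors and -0.98 ± 0.47 without IL-33 replicate 7 (edgeR, unadjusted p = 0.204 and 0.0535). Mmp2, made by fibroblasts, ran from 69.7 to 306 CPM in the vehicle tumors (median 96.8). After IL-33 it had 43.0 to 151 CPM outside replicate 7 (median 74.2) and 563 CPM in that tumor. For Mmp2, edgeR fitted a log2 fold change of -0.03 ± 0.45 with all tumors and -0.65 ± 0.32 without replicate 7 (unadjusted p = 0.949 and 0.0633).

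The membrane-type MMPs sit on the cell surface, and Mmp14, which opens proMMP2, was by far the most abundant of them. Mmp14 differed little between tumors: 266 to 336 CPM in the vehicle group (311 ± 26.0), and 237 to 363 CPM after IL-33 without replicate 7 (293 ± 37.0). Over all tumors its log2 fold change was -0.09 ± 0.15, and it was -0.16 ± 0.14 without that tumor, and neither passed the test (edgeR, unadjusted p = 0.574 and 0.267). Mmp15, Mmp16 and Mmp17 were low everywhere but in IL-33 replicate 7. Mmp17 was at 0 to 0.70 CPM in the vehicle tumors and at 0 to 0.37 CPM in 7 IL-33 tumors, and at 38.5 CPM in IL-33 replicate 7. Mmp16 had 2 counts in the vehicle group and 88 after IL-33, of which 82 were in replicate 7. Their fitted log2 fold changes of 3.67 and 4.69 (unadjusted p = 0.0151 and 0.00632) were -0.67 and 1.32 without that tumor (0.302 and 0.184).

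The same tumor held the highest value of most members. Mmp7, Mmp16, Adamts17 and Adamts18 had 2 to 9 counts outside it and reached the minimum of 10 counts only through it, so that their high value there was fixed by the choice of members. Of the other 40 members, 23 (57.5%) had their highest value there, against 39.6% of the 15803 genes that reach 10 counts without it, and 13 (32.5%) were more than 3 times higher there than in any other tumor, against 15.1% of those genes. Of these 40, Mmp17, Adamts3, Adamts8, Adamts19 and Adamts20 were under 1 CPM in every other tumor and above it in this one. The share of all genes with that pattern was not counted. All 5 members called higher with all tumors (Mmp16, Mmp17, Mmp7, Adamts10 and Adamts19) had their highest value in this tumor. Without it none of them was called higher, and Adamts19 was called lower. For Mmp16 and Mmp7, which became members only through this tumor, that highest value was fixed by the choice of members. Mmp7, matrilysin, an epithelial MMP, had 28 of its 30 counts there. Adamts10, a protease that binds fibrillin microfibrils, was at 123 CPM there and at 2.12 to 7.43 CPM in the other tumors. By contrast Mmp13, Mmp19, Mmp27, Mmp1a, Adamts14 and Timp1 had their lowest value in this tumor.

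**Figure D5:**
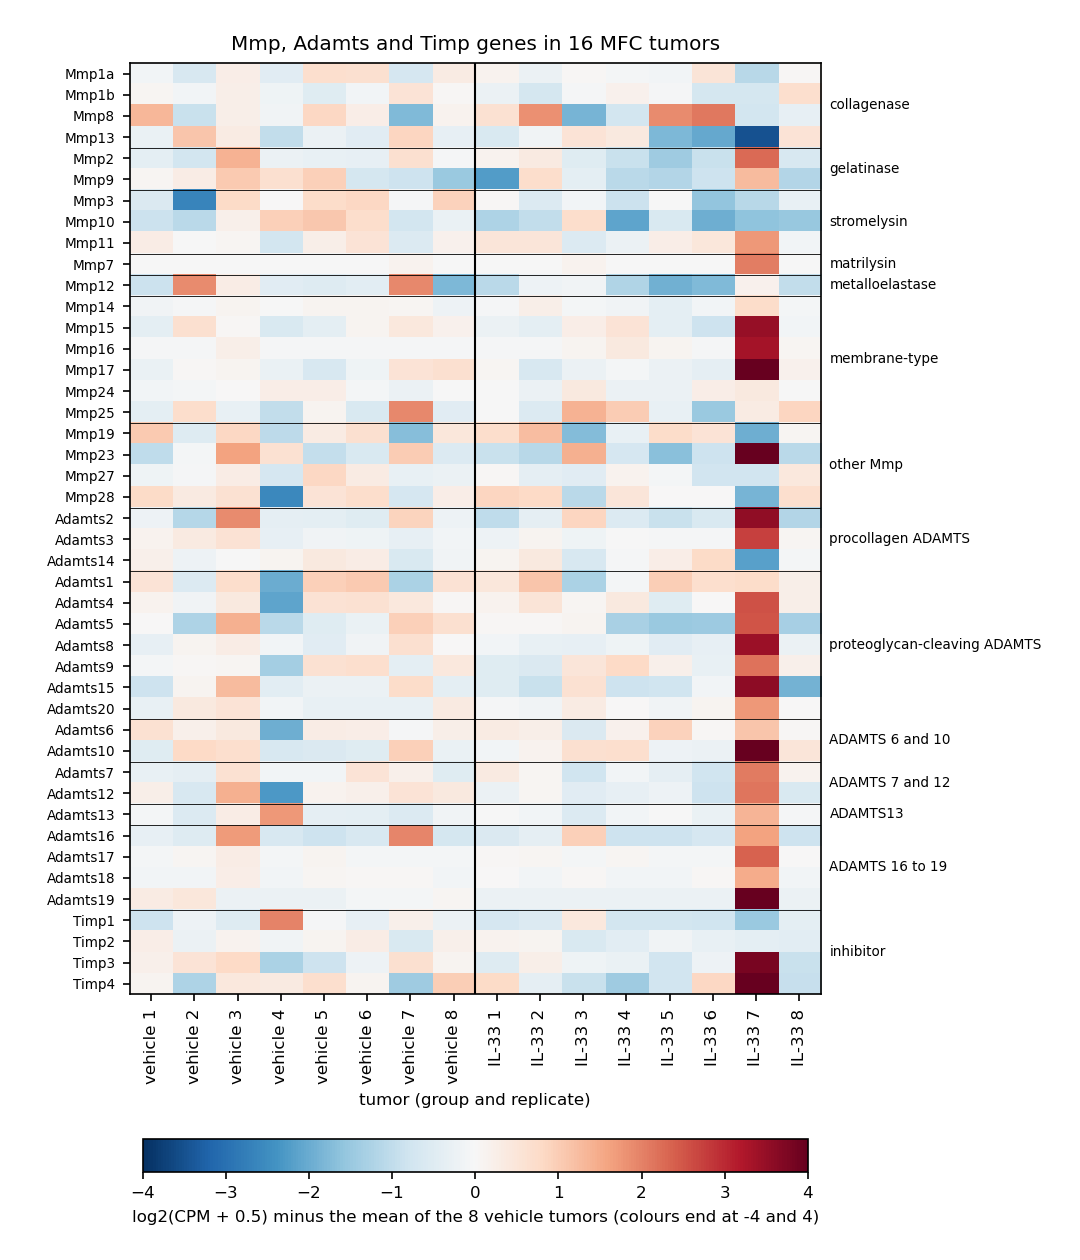
Each of the 44 genes (rows, by role) in each of the 16 tumors (columns), as log2(CPM + 0.5) minus the mean of the 8 vehicle tumors, red above and blue below that mean. The column of IL-33 replicate 7 is red for most rows and blue for Mmp13, Mmp19, Mmp28 and Adamts14, and vehicle replicate 4 stands out for Timp1, Mmp28, Adamts1, Adamts4 and Adamts12.

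Procollagen N-proteinases (Adamts2, Adamts3 and Adamts14) remove the amino-terminal propeptide of fibrillar collagens. Adamts14 was the more abundant, at 88.8 ± 18.6 CPM in the vehicle group and 97.4 ± 29.6 CPM in the IL-33 treatment group without replicate 7, where that tumor had 18.8 CPM. Adamts2 was at 9.50 to 40.3 CPM in the vehicle tumors other than replicate 3 and at 79.6 CPM in that one, and it reached 255 CPM in IL-33 replicate 7. Its difference was 0.55 ± 0.67 on the log2 scale over all tumors and -0.74 ± 0.42 without replicate 7 (edgeR, unadjusted p = 0.419 and 0.0985).

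Of the 7 proteoglycan-cleaving ADAMTS genes, which act on aggrecan and versican, Adamts1 was the most abundant, and its difference was within the spread between tumors (212 ± 119 and 242 ± 97.1 CPM, SD, n = 8 each; log2 fold change 0.16 ± 0.38). Its lowest values, 42.5 to 71.2 CPM, were in vehicle replicates 4 and 7 and IL-33 replicate 3. Adamts5, an aggrecanase, was called lower only without IL-33 replicate 7: it ran from 4.47 to 30.8 CPM in the vehicle tumors (median 10.2), and the 7 IL-33 tumors had 3.68 to 11.97 CPM (median 4.27). IL-33 replicates 4, 5, 6 and 8 were below every vehicle tumor, and vehicle replicates 3, 7 and 8 were above every one of the 7 IL-33 tumors. For Adamts5 it was -0.92 ± 0.42 (edgeR, unadjusted p = 0.0425; exact permutation test, 0.118), and -0.64 with p = 0.123 when vehicle replicate 3 was left out too. Leaving out vehicle replicate 7 or 8, or IL-33 replicate 4, 5, 6 or 8, in addition gave p between 0.0676 and 0.0836 for Adamts5. With IL-33 replicate 7, which had 66.4 CPM, it was -0.06 ± 0.56. Adamts8 was also called without that tumor (-1.49 ± 0.65, edgeR, unadjusted p = 0.0352; exact permutation test, 0.0623), on 31 vehicle counts and 10 counts in the 7 IL-33 tumors, and without vehicle replicate 7 as well its p was 0.095. Its p was also above 0.05 (0.0501 to 0.0616) on leaving out vehicle replicate 3 or IL-33 replicate 2, 3, 5, 6 or 8 in addition.

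Among the ADAMTS genes of other roles, Adamts19 had opposite fitted values with and without IL-33 replicate 7 (log2 fold change 4.36 and -3.995, of which neither is a bound). It had 15 vehicle counts, in 5 of 8 tumors, none in 7 IL-33 tumors and 379 in IL-33 replicate 7. The count of 0 allows up to 3 counts over those 7 tumors, for counting error only. The unadjusted p without replicate 7 was 0.00534 in edgeR and 0.0256 in the exact permutation test. Outside replicate 7, Adamts19 met the minimum of 10 counts only through the vehicle group. The minimum therefore favoured its call of lower in those tumors, and that call is not taken as support. Adamts12, which binds cartilage oligomeric matrix protein, was at 10.5 ± 6.44 CPM in the vehicle group and 6.64 ± 1.44 CPM in the IL-33 treatment group without replicate 7 (log2 fold change -0.65 ± 0.34, edgeR). Adamts13, the protease of von Willebrand factor, stayed at or under 0.395 CPM in all tumors but vehicle replicate 4 (1.91 CPM) and IL-33 replicate 7 (1.37 CPM).

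The log2 fold changes of all 4 inhibitors were below 0 once IL-33 replicate 7 was left out (median -0.53), and with all tumors those of Timp3 and Timp4 were above it. Timp1 (ENSMUSG00000001131, chromosome X, positions 20870166 to 20874735, plus strand) ran from 168 to 1204 CPM in the vehicle tumors (median 259), and the IL-33 tumors had 107 to 403 CPM (median 185). Only vehicle replicate 4, at 1204 CPM, was above every IL-33 tumor, and 7 IL-33 tumors were below the vehicle median. Timp1 had a log2 fold change of -1.14 ± 0.48 with all tumors (edgeR, unadjusted p = 0.0284) and -1.02 ± 0.48 without IL-33 replicate 7 (0.0489). Without vehicle replicate 4 the vehicle mean of Timp1 went from 372 ± 340.3 to 253 ± 56.4 CPM, and the log2 fold change was -0.27 ± 0.23 in edgeR. That fit had an unadjusted p of 0.26. In the data without IL-33 replicate 7, the p of Timp1 was above 0.05 when vehicle replicate 4 (0.444) or any one of IL-33 replicates 1, 2, 4, 5, 6 and 8 (0.0717 to 0.0839) was left out in addition. The exact permutation test of Timp1 gave 0.0864 with all tumors. In vehicle replicate 4, Timp1 made up 73.9% of the family's summed level per kb, against a median of 28.7% in the group.

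Timp2 was the steadiest inhibitor, at 853 ± 168 CPM in the vehicle group and 713 ± 134 CPM in the IL-33 treatment group. All 8 IL-33 tumors were below the vehicle median of 919 CPM, and 4 vehicle tumors were above every IL-33 tumor. The fitted difference of Timp2 was -0.35 ± 0.18 on the log2 scale over all tumors and -0.30 ± 0.18 without IL-33 replicate 7 (edgeR, unadjusted p = 0.0739 and 0.116; exact permutation test, 0.105 and 0.152). Timp3, the inhibitor held in the matrix, ran from 8.63 to 38.0 CPM in the vehicle tumors and from 11.4 to 25.5 CPM in 7 IL-33 tumors, and was at 306 CPM in IL-33 replicate 7. Timp4, an inhibitor of restricted tissues, was at or under 2.14 CPM in all tumors but that one, where it reached 39.0 CPM.

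The members not yet described had no call in either fit. Among those with a mean of at least 1 CPM, Mmp15 (log2 fold change 0.96 and -0.23 with all tumors and without IL-33 replicate 7), Mmp23 (1.15 and -0.79), Adamts4 (0.49 and -0.02), Adamts7 (0.17 and -0.28), Adamts9 (0.37 and -0.02) and Adamts15 (0.72 and -0.67) changed sign between the fits, all from above to below 0. Mmp28 went the other way (-0.05 and 0.11), and Adamts6, Mmp25 and Mmp27 kept their sign. Of the low genes, Adamts3, Adamts17, Adamts18, Adamts20 and Mmp24 also changed sign, with values of -0.07 to -0.76 once that tumor was left out, and were at or under 0.445 CPM outside it.

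Members also varied among tumors of one group. Among the 32 members with a mean of at least 1 CPM, vehicle replicate 3 was the highest vehicle tumor for 9 (28.1%, against 11.4% of 13109 genes at that level): Mmp2, Mmp9, Mmp23, Timp3, Adamts2, Adamts5, Adamts7, Adamts12 and Adamts15. The sum of 9 fibroblast genes was 549 to 1615 CPM in 12 tumors and 6921, 5637, 3959 and 14630 CPM in vehicle replicate 3, vehicle replicate 7, IL-33 replicate 3 and IL-33 replicate 7. Adamts16, a low gene, was at 2.37, 2.92, 1.20 and 2.22 CPM in these same 4 tumors and at or under 0.198 CPM in the other 12. Mmp23 was at 12.4, 8.00, 10.9 and 84.8 CPM in them and at or under 5.94 CPM elsewhere. Mmp19 showed another order, with its 5 lowest values, 124.9 to 341 CPM, in IL-33 replicates 7 and 3 and vehicle replicates 7, 4 and 2. The range of Mmp19 between tumors of one group was wide, from 149 to 1003 CPM in the vehicle tumors, while its group means were close (581 ± 309 and 583 ± 353 CPM, log2 fold change 0.00 ± 0.46). The part of fibroblasts in these values was not tested.

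Lists of other genes of the same system were read beside the members. Of 20 activators and inhibitors of the plasmin and MMP cascade, 4 (20%, against 9.99% of all genes) were higher and 2 (10%, against 1.17%) lower with all tumors, with a smallest adjusted p of 0.418 (edgeR). Without IL-33 replicate 7, 1 of them (5%, against 2.33% of all genes) was lower. Thbs1, thrombospondin 1, an adhesive matrix glycoprotein that binds MMPs, was higher in both fits, from 92.8 ± 32.3 CPM in the vehicle group to 143 ± 57.3 CPM in the 7 IL-33 tumors (log2 fold change 0.61 ± 0.27, unadjusted p = 0.0377). Without that tumor, the p of Thbs1 was between 0.0507 and 0.0906 when any one of vehicle replicates 1, 4, 7 and 8 or IL-33 replicates 2, 4, 5, 6 and 8 was left out in addition. Thbs2, thrombospondin 2, was lower with all tumors (224 ± 115 and 132 ± 56.1 CPM, -0.79 ± 0.34, edgeR, unadjusted p = 0.0334) and had an unadjusted p of 0.0532 without replicate 7. The p of Thbs2 was also above 0.05 on leaving out vehicle replicate 3, 5 or 6 or IL-33 replicate 4 or 8, at most 0.0791. Plg, plasminogen, was called lower in both fits on 15 counts, all of them in vehicle replicate 2, against 1 count after IL-33, and without that tumor its unadjusted p was 0.28 with all other tumors and 1.0 without IL-33 replicate 7 as well (edgeR). Plg reached the minimum of 10 counts only through vehicle replicate 2, so its high value there was fixed by the minimum. It was the 1 gene of this list called lower without IL-33 replicate 7. With all tumors the call of Plg was also lost without IL-33 replicate 8 (edgeR, unadjusted p = 0.0509). Without IL-33 replicate 7 it was lost in 9 of 15 fits that left out 1 more tumor. Vehicle replicate 2 also had the highest sum of 4 liver genes, 29.2 CPM against at most 8.04 elsewhere; the part of liver RNA was not tested. Reck, A2m and Spock1, of which the first is a membrane-anchored MMP inhibitor and the second a protease trap of plasma, were called higher with all tumors, and not without replicate 7, where their unadjusted p was 0.161, 0.615 and 0.537 (edgeR). Spock1 was at 1.20 CPM in IL-33 replicate 7 and at or under 0.0706 CPM elsewhere. It reached the minimum of 10 counts only through that tumor, so its high value there was fixed by the minimum. The call of Reck was also lost, with p from 0.0522, when any one of vehicle replicates 1, 2, 4, 5, 6 and 8 was left out.

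Of 11 ADAM proteases, the membrane-bound relatives of the ADAMTS genes, Adam28 was called higher with all tumors, on 58 counts against 1 (9.09% of the list, against 9.99% of all genes), and none was called without IL-33 replicate 7. Adam28 was at 3.25 CPM in IL-33 replicate 7 and at or under 0.0707 CPM in every other tumor. Of 20 matrix substrates, the proteoglycan genes Acan and Bcan were called higher with all tumors, on 15 counts against 1 and on 82 against none, which is 10% of the list, against 9.99% of all genes. In IL-33 replicate 7 they were at 0.798 and 4.67 CPM, and elsewhere Acan was at or under 0.0572 CPM and Bcan at 0. Adam28, Acan and Bcan reached the minimum of 10 counts only through that tumor, so their high value there was fixed by the minimum. The call of Acan was lost when any one of vehicle replicates 1, 2, 3, 4, 5, 6 and 8 was left out. Without IL-33 replicate 7 those calls were gone and 3 substrates (15%, against 2.33% of all genes) were lower, each only while vehicle replicate 3, which held the highest vehicle value of all 3, was in the fit. Eln, elastin, had 27.2 ± 27.7 CPM in the vehicle group and 9.39 ± 5.88 CPM in the 7 IL-33 tumors (log2 fold change -1.53 ± 0.59, edgeR, unadjusted p = 0.019). Bgn, the small proteoglycan biglycan, had 236 ± 208 and 114 ± 31.5 CPM (-1.08 ± 0.41, edgeR, unadjusted p = 0.0184), and Lama1, a laminin chain, had a log2 fold change of -2.81 ± 0.99 (edgeR, unadjusted p = 0.0118). Lama1 was at 1.17 ± 2.47 CPM in the vehicle group and 0.171 ± 0.125 CPM in the 7 IL-33 tumors, and vehicle replicate 3 held 147 of its 185 vehicle counts. Without vehicle replicate 3 as well, the log2 fold changes were -1.07 for Eln, -0.70 for Bgn and -1.01 for Lama1, with unadjusted p of 0.064, 0.059 and 0.161 in edgeR. The median log2 fold change of the 20 substrates was 0.06 with all tumors and -0.18 without IL-33 replicate 7.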

How the data were processed

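RNA was measured in 16 tumors, 8 per group, and tumors were grouped by the treatment in their labels. The submitters' processing notes name HISAT2, featureCounts and mm10, while versions, annotation and use of strand are not given in the sources used here. The authors deposited raw counts per gene, without normalization or pooling. Identifiers were paired with GENCODE M21 symbols (22255 of 22298), CPM are counts scaled to the total of a tumor (14139268 to 24290794), and lengths are merged exons.

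Genes with 10 or more counts summed over the tumors (16817) entered edgeR 4.0.16 (TMM scaling, glmQLFit and glmQLFTest) in R 4.3.3, with Benjamini-Hochberg adjustment over all of them, with all tumors and without IL-33 replicate 7. Log2(CPM + 0.5) was compared by a two-sided exact permutation test over 12870 assignments (6435 without that tumor). Alternatives were DESeq2 1.42.0, upper-quartile scaling, filterByExpr, no filter, robust fits, limma 3.58.1 voom with quality weights, a replicate block, and leaving out tumors. The scripts were tested on simulated data. Overlapping exons could share reads.

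Members and lists were chosen with earlier results of these data known. The rule for named genes took members with an unadjusted p under 0.05 in either fit, the Timp genes, the 6 highest members per kb, the member with the widest range in each group, members that changed sign, and list genes with such a p. The other members were described by role after their values were seen. Promoters are RefSeq entries of GRCm38.p6, found for 30 of 44 members. One gene of the list of activators and inhibitors is not reported here. The fits that left out each tumor in turn for single genes of the lists, and the count of members reaching the minimum without IL-33 replicate 7, were chosen after seeing the data.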

Additional observations from a re-analysis of the deposited data

Results flagged for a closer look

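A tumor was marked where its gap to the nearest of the 8 tumors of its group was large against the range of the group, by Dixon's 95% critical value. Of 88 such groups, 30 were marked. The chance rate of about 1 in 20 holds for independent, normally spread values. CPM near 0 and members read in the same tumors do not meet that, so it is no measure of excess here. The share of all genes so marked was not counted. In IL-33 replicate 7, 21 members were marked as highest, in CPM: Adamts2 at 254.8, Adamts10 at 123.1, Adamts15 at 119.0, Adamts4 at 79.27, Adamts5 at 66.44, Adamts7 at 40.57, Adamts12 at 39.26, Adamts19 at 21.6, Adamts8 at 6.838, Adamts3 at 3.647, Adamts17 at 2.222, Adamts20 at 1.539, Adamts13 at 1.368, Adamts18 at 1.026, Timp3 at 305.6, Timp4 at 38.98, Mmp11 at 109.0, Mmp15 at 45.76, Mmp17 at 38.52, Mmp16 at 4.673 and Mmp7 at 1.596. Mmp1a was marked there as lowest, at 0 CPM.

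Vehicle replicate 4 was marked for 5 members, as highest for Timp1 (1204 CPM) and Adamts13 (1.91 CPM) and as lowest for Adamts4 (2.688 CPM), Adamts6 (1.485 CPM) and Mmp28 (3.678 CPM). Of the other 3, Mmp3 was lowest in vehicle replicate 2 (18.88 CPM). Mmp16 in vehicle replicate 3 (0.0988 CPM) and Mmp7 in vehicle replicate 7 (0.0572 CPM) rest on 2 counts and 1 count.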

How the results depend on the processing

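With all tumors, the 5 members called higher became 0 under DESeq2, limma voom with quality weights, the replicate block, and on leaving out both vehicle replicate 4 and IL-33 replicate 7 (chosen after seeing the data), and 1 under filterByExpr, which tests fewer low genes; leaving out 1 tumor gave 0 to 6, with 0 only without IL-33 replicate 7. The 4 called lower became 2 under the replicate block, and leaving out 1 tumor gave 1 to 6, the fewest in the fit lacking vehicle replicate 4 and the most in that lacking IL-33 replicate 7. Of the 4, Mmp3 and Timp1 were not called under the block, and DESeq2 called Timp2 (log2 fold change of Timp2 -0.36) but not Timp1. Voom called Mmp10 but not Mmp12, Mmp3 and Timp1, and called Adamts12 (log2 fold change of Adamts12 -0.65), Adamts15 (log2 fold change of Adamts15 -0.85), Mmp9 (log2 fold change of Mmp9 -1.06) and Adamts19 lower. In edgeR without both tumors, Adamts5, Adamts8, Adamts12, Adamts19, Mmp12 and Timp3 were called lower, and Mmp10, Mmp3 and Timp1 were not, at unadjusted p of 0.0943, 0.0984 and 0.444. No member passed an adjusted p of 0.05 under any alternative run. DESeq2 replaced the count of IL-33 replicate 7 in 15 members. The log2 fold change of Adamts19 reversed under DESeq2 (-3.35), voom (-1.61), the replicate block (-1.63) and without both tumors (-4.17), and ran from -3.995 to 4.80 on leaving out 1 tumor. The log2 fold change of Mmp17 reversed under DESeq2 (-0.70), voom (-0.093) and without both tumors (-0.72), and ran from -0.67 to 3.95. Likewise, the log2 fold change of Mmp7 reversed under DESeq2 (-0.20), voom (-0.078) and without both (-0.018). In the permutation test of log2(CPM + pseudocount), Adamts8 reversed at a pseudocount of 0.1 (-0.0050) and without IL-33 replicate 7; leaving out 1 tumor gave -0.28 to 0.276 for Adamts8, -0.24 to 0.542 for Adamts19 and -0.18 to 0.716 for Mmp17, the lowest without that tumor. The cause of these changes was not tested. Replicate numbers are shared by the groups, but the deviations of same-numbered tumors correlated from -0.318 to 0.351, so the numbers were not taken to pair the tumors; the replicate block called 318 genes at an unadjusted p under 0.05, against 1876 without it. Depth limits the 12 members under 1 CPM and, without IL-33 replicate 7, also Adamts19, Mmp17 and Timp4.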
